A study of Bos taurus and Ovis aries and Capra hircus with 18 samples.

Results

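MBP, MOG, MAG, MOBP, OPALIN, ERMN, CLDN11, CNP and MAL, 9 genes chosen by name and all 9 found, code for proteins of the myelin sheath and of the oligodendrocytes that make it. In cattle each was taken from the gene models by its position, and in sheep and goat by its exon structure and by the order of the genes around it. They are 9 of the 14656 genes matched in all 3 species, out of 27607 cattle, 26478 sheep and 27271 goat gene models. The study sequenced poly(A)-selected RNA of frozen brain and of muscle from adult cattle, sheep and goats, with 3 libraries, lettered A, B and C, for each species and tissue. No treatment, breed, sex, brain region or muscle is given in the labels. They do not say whether the letters are separate animals, so the p-values below measure the spread between these libraries, which may be technical.

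Myelin is the membrane that wraps axons in many tight layers. In the brain it is made by oligodendrocytes and is densest in white matter, whereas in the nerves that enter muscle it is made by Schwann cells, which share some proteins with oligodendrocytes and use others in their place. MBP, the basic protein that holds the inner faces of the membrane together, and MAG occur in both kinds of myelin. In bulk tissue, fewer cells of a type and less RNA per cell cannot be told apart.

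Among the proteins of compact myelin, MBP lay at chromosome 24, 2224463 to 2328579, plus strand (ENSBTAG00000022890). MOBP, a small basic protein of the same layers, lay at chromosome 22, 12723390 to 12756307, plus strand (ENSBTAG00000009774). CLDN11, the claudin of the tight junctions between myelin layers, lay at chromosome 1, 96999962 to 97014928, minus strand (ENSBTAG00000019060), and MAL, a proteolipid of membrane sorting, at chromosome 11, 1848632 to 1873328, plus strand (ENSBTAG00000034586). These and the following positions are those of the cattle files, for which the submitters' processing notes name the build ARS-UCD1.2. They give the span of the whole gene with its introns.

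Of the surface and adhesion proteins, MOG, on the outermost face of the sheath, lay at chromosome 23, 28941968 to 28953585, minus strand (ENSBTAG00000017818). MAG, the adhesion protein next to the axon, lay at chromosome 18, 46002123 to 46018891, plus strand (ENSBTAG00000017044), and OPALIN, a transmembrane protein of oligodendrocytes, at chromosome 26, 17684303 to 17698885, minus strand (ENSBTAG00000011740). CNP, an enzyme that keeps cytoplasmic channels of the sheath open, lay at chromosome 19, 42130921 to 42138136, plus strand (ENSBTAG00000025762), and ERMN, an actin-binding protein of mature oligodendrocytes, at chromosome 2, 39011020 to 39016794, plus strand (ENSBTAG00000012912).

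The gene models of these 9 genes differ in length between the species. The MBP model covers 2866 exonic bases in cattle, 2645 in sheep and 576 in goat. OPALIN covers 2482, 429 and 537 bases, MOBP 1819, 696 and 462, and MAL 1422, 933 and 462, in the same order. MAG runs the other way, with 2387 bases in cattle, 1908 in sheep and 4199 in goat. Comparisons between species therefore use counts divided by these lengths, and every such result was also computed without the lengths. MOBP shared no exon length with its cattle gene in sheep or goat and CLDN11 shared 1, so both rest on gene order. ERMN also shared only 1 in each, with no neighbouring pair, and was placed by it among matched neighbours. In cattle 1352 exonic bases of MOG, 51.3% of its length, overlap ZFP57 on the other strand, and whether strand was used in counting is not given, so cattle MOG is uncertain.

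Reads assigned to genes ranged from 20730803 to 58514630 per library. The tissue labels matched the tissue markers. The summed level of 8 neuron genes was 1932 to 8734 CPM (read counts scaled for library size within each species) in the brain libraries and 2.78 to 10.3 in muscle. Up to 8 muscle fibre genes summed to 18.01 to 65.1 CPM in brain and to 114500 to 228700 in muscle. A single brain library, sheep C, stood apart: 48.8% of 13219 matched genes differed at least 2-fold from the mean of sheep brain A and B, against 0.772% to 17.6% in the 15 libraries outside sheep brain. Some of the results that rest on it are given with and without it, and the same is done for goat brain A, in which the myelin genes stood apart. Most differences between brain and muscle are given with both libraries kept.

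In brain, MBP stood at 1753, 1916 and 951 CPM in cattle A, B and C, at 2495, 2342 and 3684 in sheep, and at 17555, 2561 and 2861 in goat. The goat A value is 6.85 times the lowest of its group. MOBP was at 80.5, 90.9 and 54.5 CPM in cattle, 120, 100 and 30.4 in sheep, and 674, 75.8 and 93.7 in goat. Both genes of compact myelin were highest in goat A, but in sheep C MBP was at its highest of the 3 sheep libraries and MOBP at its lowest.

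CLDN11 was at 27.9, 24.6 and 24.2 CPM in cattle brain, 53.0, 54.2 and 12.3 in sheep, and 319, 136 and 125 in goat. On this scale, without length correction, the goat values lie above all others and sheep C lies below the cattle values. In length-corrected CPM sheep A and B, at 102 and 105, lay above goat B and C, at 95.8 and 91.0. Sheep C, at 24.0, was still below cattle. MAL was at 50.9, 47.9 and 28.2 CPM in cattle, 51.1, 38.7 and 50.7 in sheep, and 93.4, 49.7 and 47.0 in goat. It was the most even of the 9 genes in goat, with a highest value 1.98 times the lowest.

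MOG was at 27.1, 21.7 and 28.3 CPM in cattle, 62.2, 62.0 and 48.8 in sheep, and 195, 72.1 and 67.3 in goat. MAG was at 73.5, 57.6 and 77.2 CPM in cattle, 127, 111 and 146 in sheep, and 427, 162 and 173 in goat. For these 2 surface proteins no value of 1 species fell within the range of another in brain, on this scale without length correction. In length-corrected CPM goat overlapped sheep for both genes and cattle for MAG. MAG was then at 136, 105 and 140 in cattle, 186, 163 and 215 in sheep, and 289, 104 and 115 in goat. Cattle MAG stayed below sheep. MOG was then at 22.6, 17.8 and 23.1 in cattle, 116, 116 and 92.2 in sheep, and 229, 80.6 and 77.5 in goat. Cattle MOG stayed below both other species. OPALIN was at 39.0, 42.9 and 52.3 CPM in cattle, 72.1, 83.2 and 25.6 in sheep, and 162, 59.3 and 68.3 in goat. The ranges of the sheep and goat libraries overlapped, and sheep C was the lowest library of all on this scale. In length-corrected CPM sheep C, at 52.1, lay above the cattle libraries, at 21.5, 23.3 and 28.2.

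CNP was at 146, 151 and 141 CPM in cattle brain, 237, 262 and 101 in sheep, and 793, 217 and 327 in goat. ERMN was at 22.1, 20.8 and 20.4 CPM in cattle, 38.1, 42.9 and 6.48 in sheep, and 233, 64.0 and 54.0 in goat. The 3 cattle libraries were close for both genes, while sheep C lay below every cattle library for both.

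**Figure D1:**
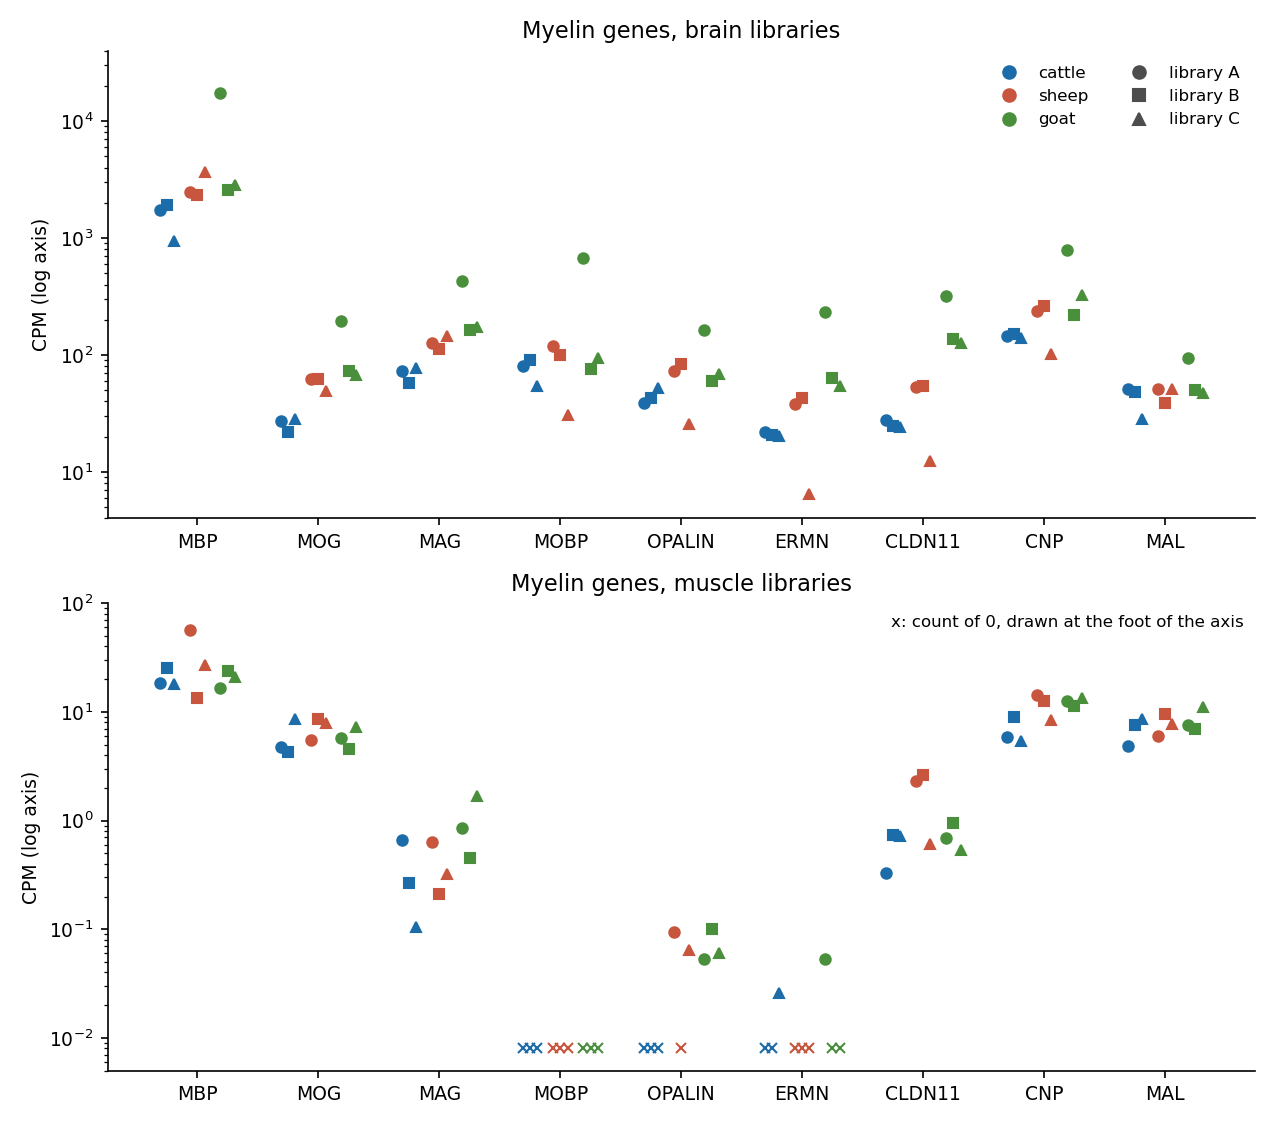
CPM of the 9 myelin genes in every library on log axes, brain above and muscle below, with colour for species and symbol for library; crosses are counts of 0. Goat brain A (green circle) is the highest goat library for all 9 genes, and MOBP has only crosses in muscle.

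Set on a per-length scale, CPM per kilobase of exon, MBP led in all 3 brains and did not overlap the next gene in any of them. It averaged 537 ± 180 CPM per kilobase in cattle, 1074 ± 278 in sheep and 13297 ± 14881 in goat (SD, n = 3), which is 71.7%, 61.1% and 89.4% of the summed level of the 9 genes. CNP came second in cattle and sheep, at 60.1 ± 2.11 and 143 ± 62.0, and behind MOBP in goat at 348 ± 239. In cattle the order of the other genes was MOBP, MAL, MAG, OPALIN, CLDN11, ERMN and MOG, from 41.4 ± 10.3 down to 9.76 ± 1.33, and only the neighbours MOBP with MAL and MAL with MAG overlapped. In sheep the order after CNP was OPALIN, MOBP, MOG, MAG, MAL, CLDN11 and ERMN, and in goat it was MOBP, CNP, OPALIN, MAL, MOG, CLDN11, ERMN and MAG. Neighbours in those orders overlapped, apart from MBP with the next gene and, in sheep, MAG with MAL. The short goat model of MBP enters this scale directly.

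Goat brain A was the highest goat library for all 9 genes. On the length-corrected scale its level was 8.21 times the mean of goat B and C for MOBP, 6.69 times for MBP, 4.08 times for ERMN, 3.01 times for CNP, 2.89 times for MOG, 2.64 times for MAG, 2.63 times for OPALIN, 2.52 times for CLDN11 and 1.995 times for MAL. In log2 of the level plus 0.5 the median over the 9 genes was 1.53, and 8 of them reached 1, beside a median of -0.03 over all 13219 matched genes and 2.48% of those genes at 1 or more.

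Several other lists of oligodendrocyte genes were high in goat A as well, while 2 of 6 other genes of the myelin membrane and its junctions reached a log2 difference of 1, with a median of 0.80, and 2 of 8 genes of peripheral myelin and Schwann cells did. All 3 matched transcription factors reached a log2 difference of 1 or more from B and C. These were SOX10, at 139 CPM against 37.2 and 65.1, MYRF, at 128 against 39.8 and 50.4, and NKX6-2, at 39.9 against 14.1 and 8.88. Of the 9 matched genes listed for mature oligodendrocytes 7 reached 1, among them BCAS1 with 1088 CPM against 191 and 151 and TF, transferrin, with 828 against 341 and 304. Of 4 lipid enzymes 3 did so, including UGT8, which makes galactosylceramide, with 281 CPM against 104 and 99.9. By contrast none of 5 precursor genes, 8 neuron genes or 5 astrocyte genes reached 1 in either direction, and their medians were 0.66, -0.49 and -0.03.

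Summed per kilobase, the 9 genes stood at 16.7 times the summed neuron genes in goat A, against 1.67 in goat B and 2.33 in goat C. The log2 of goat A over the mean of B and C was 3.07, and 2.40 without MBP. In cattle the same ratio with MBP ran from 0.287 to 0.499, and in sheep it was 0.551, 0.659 and 1.12. The short goat model of MBP enters these ratios. Without MBP they were 1.56, 0.241 and 0.348 in goat A, B and C, and 0.257, 0.318 and 0.249 in sheep. In cattle they then ran from 0.106 to 0.123. The neuron sum was itself lowest of the 3 goat libraries in A, at 2135 against 3155 and 2619 CPM per kilobase. Whether the pieces of tissue differed in their share of white matter was not tested, since no label gives the region.

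**Figure D2:**
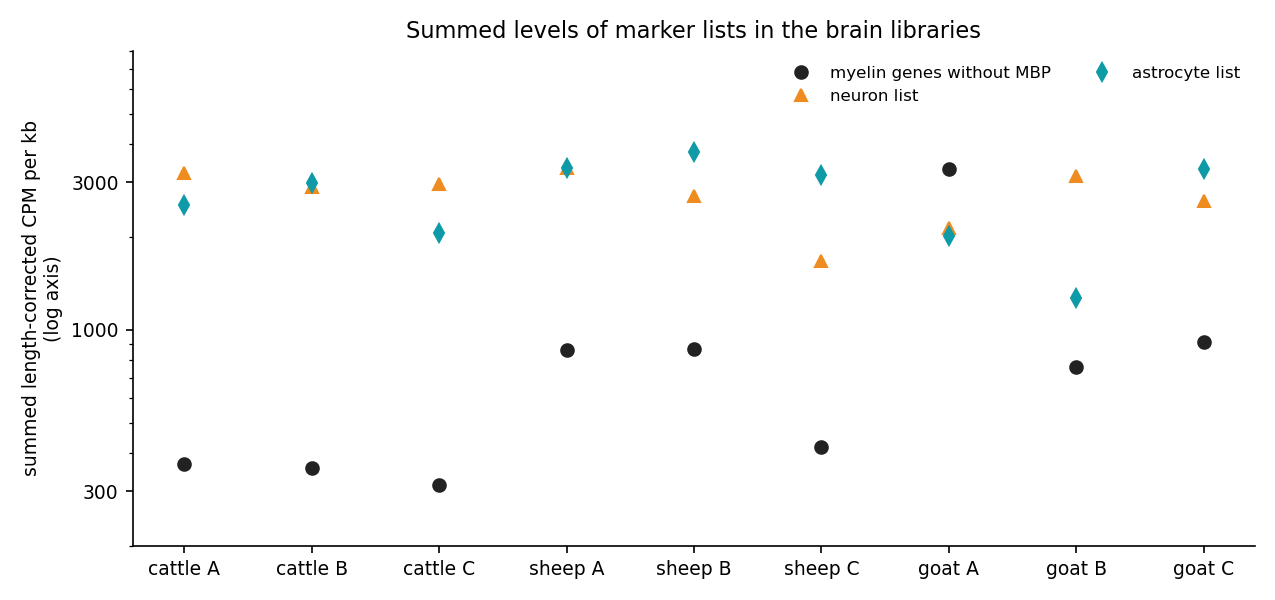
Summed length-corrected CPM per kilobase (log axis) of the myelin genes without MBP and of the neuron and astrocyte lists in each of the 9 brain libraries. The myelin sum rises to 3325 in goat A, where the neuron sum is 2135.

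Sheep brain C did not move the 9 genes together. Its level was 1.54 times the mean of sheep A and B for MBP, 1.23 times for MAG and 1.14 times for MAL. It was 0.162 times that mean for ERMN, 0.232 for CLDN11, 0.279 for MOBP, 0.333 for OPALIN, 0.409 for CNP and 0.793 for MOG. On the log2 scale the median of the 9 genes was -1.29 and 5 fell to -1 or less, in a library in which 27.4% of all matched genes did so. UGT8, the galactosylceramide enzyme, stood at 1.38 CPM against 41.7 and 37.2. HAPLN2, a linker of the matrix at nodes of Ranvier, went the other way with 157 CPM against 45.0 and 43.7, and so did SIRT2, a deacetylase of oligodendrocyte cytoplasm, with 339 against 137 and 167.

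Genes of other brain cells were split in the same library. The neuron gene SYT1 was at 20.2 CPM in sheep C against 405 and 341, and the astrocyte genes SLC1A3 and AQP4 were at 81.6 against 869 and 1181 and at 4.85 against 144 and 143. ALDOC, also of astrocytes, was at 2921 against 1323 and 1467. The ratio of the summed myelin genes to the summed neuron genes in sheep C was above A and B by 0.90 on the log2 scale with MBP and below them by 0.21 without it (-0.21), so its direction rests on MBP. The part that a trait of this library has in these levels was not tested.

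**Figure D3:**
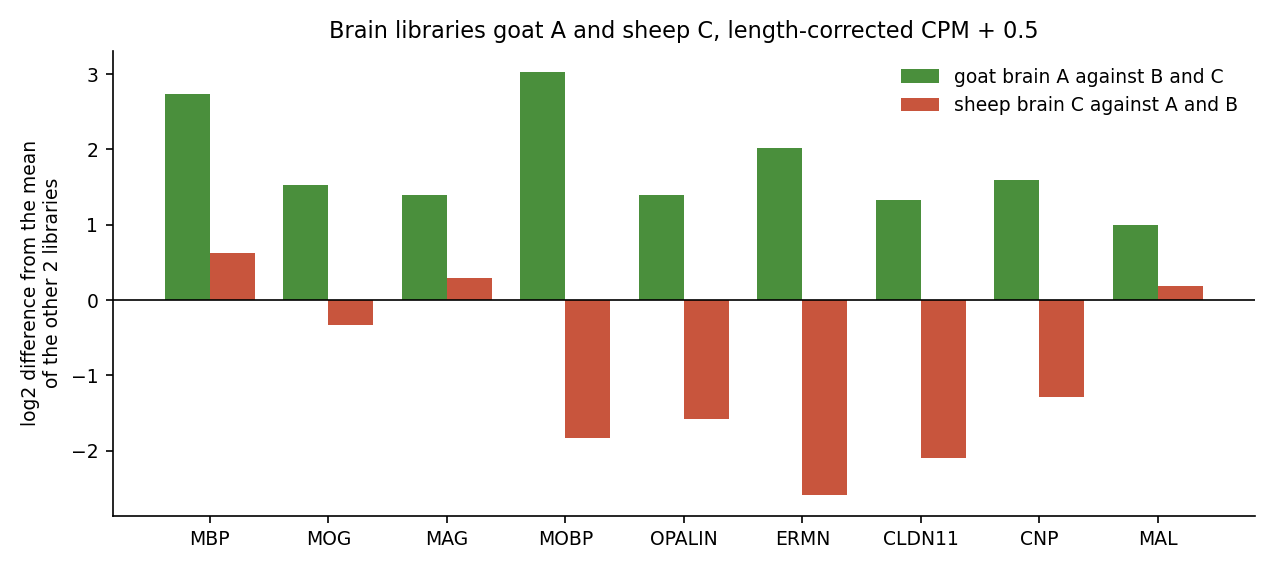
Log2 difference of goat brain A from the mean of goat B and C, and of sheep brain C from the mean of sheep A and B, for the 9 myelin genes (length-corrected CPM plus 0.5). All goat A bars are above 0, from 0.99 for MAL to 3.03 for MOBP, whereas sheep C runs from 0.62 for MBP to -2.58 for ERMN.

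All 9 genes were higher in brain than in muscle in each species. The test was edgeR's quasi-likelihood test on the counts, and a gene was called where its Benjamini-Hochberg adjusted p was below 0.05 and its change at least 2-fold. In cattle 9 of 9 were called higher, beside 33.9% of 16428 genes tested. The count was 9 of 9 in sheep, beside 28.5% of 15616 genes, and 9 of 9 in goat, beside 31.4% of 15825. The median log2 difference of the 9 genes was 6.22 in cattle, 6.46 in sheep and 8.04 in goat, and it was the same with the genes that had no count in muscle set at their lower bounds. Over all genes tested the medians were 0.09, 0.17 and 0.12. Leaving out any single library kept the count at 9 in all 3 species.

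MBP was higher in brain by a log2 difference of 6.22 ± 0.37 (SE) in cattle, 6.46 ± 0.67 in sheep and 8.56 ± 0.96 in goat, with adjusted p-values from edgeR of 1.31e-06, 0.000429 and 6.91e-05. Without goat brain A the goat difference was 7.07 ± 0.37. CNP differed by 4.44 ± 0.22, 4.10 ± 0.48 and 5.16 ± 0.51, with adjusted p-values from edgeR of 5.09e-07, 0.000655 and 3.3e-05. MAG, which has few reads in muscle, differed by 7.70 ± 0.45, 8.36 ± 0.53 and 8.02 ± 0.65.

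MAL and MOG had the smallest differences. MAL was higher in brain by 2.58 ± 0.29 in cattle, 2.59 ± 0.33 in sheep and 2.896 ± 0.359 in goat, with adjusted p-values from edgeR of 6.41e-05, 0.000815 and 0.000125. MOG differed by 2.13 ± 0.28, 2.98 ± 0.32 and 4.25 ± 0.48, with adjusted p-values of 0.000148, 0.000458 and 7.56e-05. CLDN11 differed by 5.39 ± 0.29, 4.43 ± 0.82 and 8.04 ± 0.53.

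MOBP, OPALIN and ERMN had almost no reads in muscle. MOBP had none in the 9 muscle libraries. A floor of 3 counts over the 3 muscle libraries of a species puts it at least 2848-fold higher in the brain of cattle. The bound is at least 2714-fold for sheep brain and at least 5633-fold for goat brain. OPALIN had no count in cattle muscle, at least 1677-fold below brain, and 5 counts in sheep and 4 in goat muscle. ERMN had none in sheep muscle, at least 963-fold below brain. A single read in cattle and in goat muscle put the ratio of ERMN at 2402 (95% Poisson interval 431 to 94870) and at 6825 (1225 to 269600). These intervals cover counting error only.

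With species as a term, all 18 libraries and the 13219 matched genes tested, the 9 genes were again all called higher in brain, beside 31.2% of genes, with a median log2 difference of 7.01 against 0.07 for all genes. Whether the tissue difference itself varied between the species was tested with an F test of the interaction, which called 25.6% of genes. It called 2 of the 9. For CLDN11 the edgeR adjusted p was 0.0112: the goat difference exceeded that of sheep by 3.60 ± 0.82 (adjusted p = 0.0158) and that of cattle by 2.72 ± 0.84 (0.0403) on the log2 scale. For MOG it was 0.0212, with the goat difference above that of cattle by 2.19 ± 0.55 (0.0136). MOG falls outside the call without goat brain A (adjusted p = 0.0505), cattle brain B (0.0526), cattle muscle C (0.0572) or goat muscle B (0.052), and with the replicate letter as a block (0.0577), and cattle MOG is the gene whose model overlaps ZFP57. For MBP the adjusted p of the interaction was 0.0904.

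The other genes of myelin and of its cells, taken from lists of known markers, were tested in the same model of 18 libraries. Of 11 listed genes of the myelin membrane and its junctions 6 could be matched, and all 6 were higher in brain with a median log2 difference of 5.89. CNTN2 and NFASC, adhesion proteins of the node region, were higher by 8.20 ± 0.37 and 5.42 ± 0.36 (SE). Of 4 matched lipid enzymes UGT8 and FA2H, which hydroxylates the fatty acids of myelin lipids, were higher by 5.74 ± 0.59 and 6.07 ± 0.39, while CERS2, a ceramide synthase, differed by 0.44 ± 0.20 and ASPA, an aspartoacylase, by -0.14 ± 0.36, neither passing the test.

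All 3 matched transcription factors of oligodendrocytes were higher in brain, SOX10 by 5.42 ± 0.36, MYRF by 8.35 ± 0.49 and NKX6-2 by 7.67 ± 0.55. OLIG1, followed in cattle only, was at 45.7, 59.8 and 36.9 CPM in brain and below 0.05 in muscle. Of 9 genes listed for mature oligodendrocytes 7 were higher, with a median of 3.67, among them BCAS1 by 6.41 ± 0.46 and TF by 5.90 ± 0.39. SIRT2 differed by -0.23 ± 0.18 and did not pass, with 114 to 339 CPM in brain and 127 to 300.2 in muscle. The precursor list was mixed: PTPRZ1, a receptor phosphatase, rose by 8.79 ± 0.43 and PDGFRA by 1.29 ± 0.43, SOX6 fell by 2.54 (SE 0.52), and VCAN at -0.13 ± 0.44 and CSPG4 at -0.68 ± 0.23 did not pass. In cattle alone VCAN was lower in brain, by -1.83 ± 0.44.

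Lists of other cells give the setting. All 8 neuron genes were higher in brain, among them the synaptic genes SNAP25 by 12.01 and SYT1 by 11.83 on the log2 scale. So were 5 of 5 astrocyte genes, GFAP by 11.61 among them, the neurofilament NEFH by 9.44 ± 0.73, and CSF1R of 2 microglial genes by 3.26 ± 0.26. All 7 matched muscle fibre genes were lower in brain, with a median of -12.9 and the actin ACTA1 at -13.08. Of 5 T cell genes 4 were lower in brain, CD3E by -1.999 and CD3D by -2.37 among them, and LCK, at 0.60 ± 0.33, did not pass, although in the cattle fit it was higher in brain by 1.89 ± 0.42.

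Between species, brain levels of most of the 9 genes were lower in cattle than in goat, and which of them passed the test changed with the gene models and with single libraries. Length-corrected levels were compared in all 18 libraries with edgeR. Cattle was called lower than goat for 8 of 9 genes, all but MAG, beside 12.3% of 13219 genes called lower and 24.1% called in either direction. The median log2 difference was -2.11, against 0.04 over all genes. The differences were -4.00 ± 0.70 for MBP (edgeR adjusted p = 0.000434), -3.25 ± 0.84 for MOBP, -2.69 ± 0.48 for OPALIN, -2.61 ± 0.40 for MOG, -2.11 ± 0.54 for CLDN11, -1.96 ± 0.63 for ERMN, -1.90 ± 0.43 for CNP and -1.56 ± 0.34 for MAL. MAG differed by -0.42 ± 0.48 with an adjusted p of 0.556.

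Without goat brain A the count fell to 5 of 9, and MOBP, ERMN and CLDN11 left it, at -1.49, -0.94 and -1.53. With sheep brain C left out as well, MOBP and CLDN11 were called, and ERMN, at -0.99 (edgeR adjusted p = 0.00621), fell short of 2-fold. ERMN also left the calls without cattle brain A (adjusted p = 0.077), B (0.0848) or C (0.0839), and MOBP without cattle brain C (0.0574). Without goat brain A the difference of MBP was -2.47 ± 0.47 and that of MAG was 0.21 ± 0.49. Without the length offset 6 of 9 were called: MBP, MOG, ERMN, CLDN11 and CNP in both fits, and MAG in place of MOBP, OPALIN and MAL. All 9 differences were below 0 in both fits, at a median of -2.11 with the lengths and -1.62 without them.

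**Figure D4:**
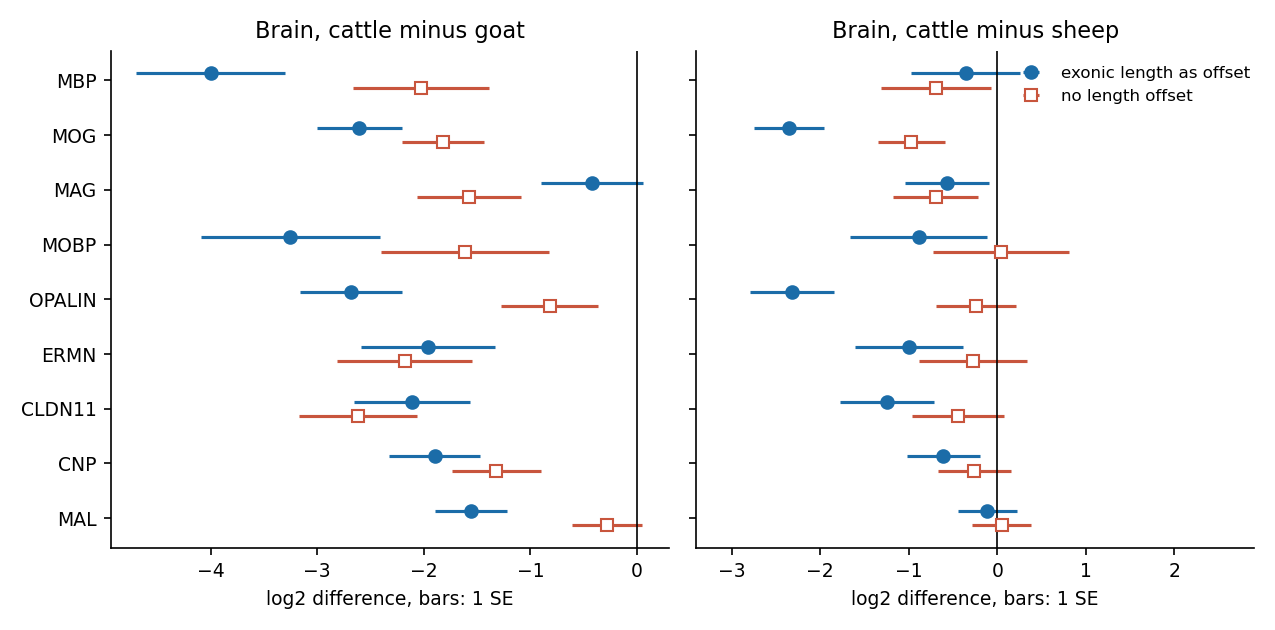
Log2 difference of brain levels, cattle minus goat (left) and cattle minus sheep (right), for the 9 genes, with exonic length as an offset (filled circles) and without it (open squares); bars are 1 SE. Cattle minus goat stays below 0 for all 9 genes in both fits, with MBP at -4.00 and -2.03.

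Cattle against sheep gave 2 calls of 9, MOG and OPALIN, both lower in cattle, beside 26.1% of genes called in either direction and 17.2% called lower. MOG differed by -2.35 ± 0.39 (edgeR adjusted p = 0.000382) and OPALIN by -2.32 ± 0.47 (0.00215). Neither passed without the length offset, at -0.97 and -0.24, and the cattle models of these 2 genes are 3.56 and 5.79 times as long as the sheep models. Cattle MOG is also uncertain in every comparison of cattle with another species, since its model overlaps ZFP57. Without sheep brain C the count rose to 4, with ERMN at -1.40 and CLDN11 at -1.60 added, and without both sheep C and goat A to 5, with MOBP at -1.22.

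Sheep against goat gave 3 calls of 9, all lower in sheep, beside 19.0% of genes called and 5.51% called lower. MBP differed by -3.64 ± 0.69 (edgeR adjusted p = 0.00105), MAL by -1.45 ± 0.34 (0.00514) and CNP by -1.29 ± 0.42 (0.0358). CNP left the calls without sheep brain C, at -1.05 (adjusted p = 0.065), and without goat brain A, at -0.55 (0.343). Without the length offset none of the 3 passed, and ERMN at -1.91 and CLDN11 at -2.18 were called in their place. MOBP, at -2.36 with an adjusted p of 0.0596, was called without goat brain B (0.0326) or C (0.0422).

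In muscle, 6 of the 9 genes had reads in all 9 libraries. MBP had the highest mean per kilobase in each species, apart from the next gene in cattle and goat and overlapping it in sheep, at 7.19 ± 1.43 CPM per kilobase in cattle, 12.2 ± 8.38 in sheep and 35.3 ± 6.50 in goat (SD, n = 3). MBP counts were 611, 1058 and 698 in cattle A, B and C, 1802, 439 and 834 in sheep, and 310, 477 and 345 in goat, or 13.3 to 56.6 CPM over the 9 libraries. In CPM without length correction sheep A was the highest of all and sheep B the lowest, and the cattle and goat values fell between them. In length-corrected CPM goat A, B and C, at 48.8, 71.4 and 64.1, lay above sheep A, at 36.8.

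MAL was at 4.90, 7.62 and 8.65 CPM in cattle muscle, 5.94, 9.55 and 7.79 in sheep, and 7.62, 6.96 and 10.98 in goat. CNP was at 5.92, 8.87 and 5.43 CPM in cattle, 14.2, 12.5 and 8.37 in sheep, and 12.7, 11.4 and 13.4 in goat. MOG was at 4.75, 4.32 and 8.52 CPM in cattle, 5.47, 8.67 and 7.82 in sheep, and 5.77, 4.50 and 7.32 in goat. CNP and MAL are also made outside myelin, whereas MOG is known as a protein of central myelin. Each of the 3 genes was read at more than 4 CPM in every muscle library.

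CLDN11 counts in muscle were 11, 31 and 28 in cattle, 74, 86 and 19 in sheep, and 13, 19 and 9 in goat, so that sheep A and B stood above the other 7 libraries. MAG counts were 22, 11 and 4 in cattle, 20, 7 and 10 in sheep, and 16, 9 and 28 in goat. MAG, known from Schwann cells too, was thus at 0.104 to 1.68 CPM in muscle.

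Genes of peripheral myelin and Schwann cells were read in both tissues. PMP22, a membrane protein of peripheral myelin that is also made outside nerve, was at 55.0, 70.1 and 67.5 CPM in cattle muscle, 36.2, 46.2 and 36.4 in sheep, and 65.6, 71.7 and 114 in goat. Its brain levels were 32.3, 24.4 and 29.6 CPM in cattle, 10.6, 8.23 and 5.10 in sheep, and 55.6, 24.6 and 27.4 in goat, below the muscle levels of the same species. PMP22 was lower in brain by -1.16 ± 0.16 in cattle, -2.31 ± 0.37 in sheep and -1.23 ± 0.37 in goat, with edgeR adjusted p-values of 0.000241, 0.00232 and 0.0181, where 25.3%, 19.2% and 23.2% of genes were called lower. Over the species it was lower as well, by -1.61 ± 0.23, as were 23.3% of genes, whereas 3 other genes of the list were higher in brain (DRP2 by 3.60 ± 0.38, ERBB3 by 3.35 ± 0.27, GLDN by 2.08 ± 0.69), and PRX at -0.72 ± 0.32, EGR2 and NGFR did not pass.

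**Figure D5:**
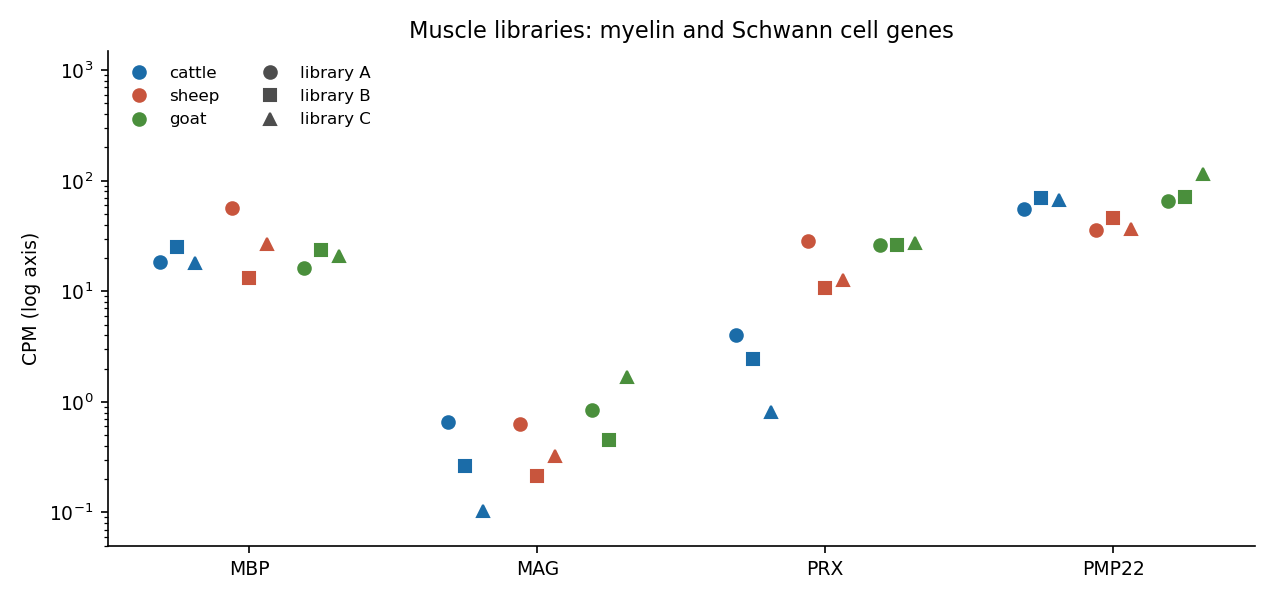
CPM (log axis) in the 9 muscle libraries of MBP and MAG, of PRX, a Schwann cell gene, and of PMP22, with colour for species and symbol for library. MAG is at 0.104 to 1.68 CPM, below the other 3 genes in every library, and its highest library is A in cattle and sheep and C in goat, as for PRX but not for PMP22 in cattle and sheep.

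PRX, periaxin, is a protein of myelinating Schwann cells, and in each species the muscle library with the most PRX also had the most MAG, a pair picked after the values were seen. Of 7 genes of the peripheral myelin and Schwann cell list, only PRX and ERBB3 shared the library of MAG in all 3 species. In cattle 3 of the 7 did, in sheep 5 and in goat 3, so that PMP22, EGR2, DRP2, NGFR and GLDN were highest in another library in at least 1 species. In cattle the library was A, with 4.06 CPM of PRX against 2.42 and 0.806, and 0.661 of MAG against 0.264 and 0.104. In sheep it was A as well, with 28.3 CPM of PRX against 10.7 and 12.6, and 0.629 of MAG against 0.212 and 0.323. In goat it was C, with 27.3 CPM of PRX against 26.2 in both A and B, a narrow gap, and 1.68 of MAG against 0.847 and 0.450. MBP shared this in sheep, where A had 56.6 CPM against 13.3 and 27.0, but not in cattle or goat, where B was the highest for MBP. MOG, MAL and CLDN11 did not share it in cattle or sheep: there A was the lowest library for MAL, and B or C the highest for all 3 genes.

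MBP and MAL transcripts are also known from T cells, whose 5 marker genes summed to 2.10 to 5.73 CPM in cattle muscle, 14.3 to 17.97 in sheep and 14.5 to 21.2 in goat, all 5 with counts in each. Neuron markers summed to 2.78 to 10.3 CPM there, and NEFH was at 0 in sheep muscle. The oligodendrocyte transcription factors summed to 0.624 to 3.65 CPM, mostly SOX10, which Schwann cells share, at 0.3898 to 3.30 CPM, whereas MYRF stayed at or below 0.727. What part nerve, T cells or the muscle itself have in the muscle reads of the 9 genes was not tested.

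Between species in muscle, the shares of the 9 genes called were near those of all genes, and each set of calls changed with the lengths. Cattle was lower than sheep for 3 of 9, beside 29.8% of genes called and 16.7% called lower: OPALIN, with 0 against 5 counts in all, CLDN11 by -2.12 ± 0.60 and MOG by -1.42 ± 0.39 (edgeR adjusted p = 0.0112 and 0.00925). Cattle was lower than goat for 3 of 9, beside 34.5% called and 17.1% called lower: OPALIN, with 0 against 4 counts, MAL by -1.18 ± 0.34 (0.0109) and CNP by -1.10 ± 0.43 (0.0488). Sheep against goat gave 2 of 9, beside 24.3% of genes called, 13.5% higher and 10.8% lower, with CLDN11 higher in sheep by 2.73 ± 0.63 (0.0038) and MAL lower by -1.17 ± 0.34 (0.0162). Without the length offset none of these 8 calls passed. Without cattle muscle A, goat muscle B or goat muscle C a single gene was called for cattle against goat. The CNP call was lost without the low-count filter (0.0512) and on leaving out any of 13 of the 18 libraries (0.052 to 0.15), and MAL left the calls for sheep against goat without sheep muscle A (-1.01, 0.077) or goat muscle C (-0.92, 0.0779). MBP was not called, with cattle minus goat at -1.58 ± 0.64 (0.0572). It was called with RLE scaling (0.0421), with library totals (0.0206), by DESeq2 (0.0248) and on leaving out any of 6 libraries (0.00844 to 0.0488), whereas without the length offset its difference was 0.42 ± 0.62 (0.619).

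The genes whose brain levels most resembled those of the 9 were sought over the 9 brain libraries, after the mean of each species was taken off. Likeness was the smaller of Pearson's r with the mean of the 9 genes over all 9 libraries and over the 8 without sheep C, among 8069 other genes with a mean of at least 10 CPM. It is a description: the libraries are few, and goat A lies far from the rest. The 10 genes of highest likeness were MAP2K7, TTYH2, TF, PKP4, CERS2, GLTP, GDF11, SLC27A6, SCD5 and EML2, at 0.986 down to 0.962. TF, the transferrin gene, and CERS2 also stand on the marker lists. Without goat A their r lay between 0.824 and 0.959. By Spearman's rho 2 of these 10 genes were among the 10 highest.

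The 9 genes were not equally alike to one another on this measure, each set against the mean of the other 8. Over 9 libraries r was 0.988 for MOBP, 0.947 for CNP, 0.907 for MOG, 0.867 for OPALIN, 0.862 for ERMN and 0.825 for CLDN11, and 0.677 for MAG, 0.66 for MBP and 0.60 for MAL. Without sheep C it was 0.788 or more for all 9. Without goat A it was 0.967 for MOBP, 0.956 for CLDN11 and 0.921 for ERMN, but -0.599 for MAG, -0.421 for MBP and -0.10 for MAL, the 3 genes whose length-corrected level was highest in sheep C among the sheep libraries.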

How the data were processed

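The deposited values are raw read counts per gene, 1 library per file, per the file headers; the submitters' processing notes name Trimmomatic 0.39, STAR 2.7.6 and featureCounts, made by the authors before deposit. The strand setting, the treatment of multi-mapping reads and the sheep and goat builds were not given in the sources used here. Depth is the total of these counts and sets the counting error of each level. The notes on extraction name brain for the muscle libraries too.

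Cattle models were named where their span overlapped a RefSeq gene (ARS-UCD2.0, used for names alone) by at least 0.5 of their joint span, which named 20139. Sheep and goat partners were matched by at least 2 neighbouring exon lengths (10010 genes in all 3 species), then by at least 1 between matched neighbours (3720), then by gene order (926). The last pass was added after seeing the data. For first-pass genes held out, the second pass gave the same partner for 99.81% (cattle with sheep), 99.43% (cattle with goat) and 99.35% (sheep with goat) of those it placed. Gene order placed 640 of 1095, 615 of 1096 and 670 of 1113 of them, with the same partner for 100.0%, 98.86% and 99.1% of those placed. All genes held out met the exon rule of the first pass. MOBP, CLDN11 and the other genes of later passes did not, so these shares do not measure how sure their pairings are.

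Counts were fitted with edgeR 4.0.16 (TMM scaling, filterByExpr, robust quasi-likelihood test, Benjamini-Hochberg adjustment over all genes tested, adjusted p below 0.05 and at least 2-fold), within species on 6 libraries and over species on 18 with log exonic length as an offset. SE is the log2 difference divided by the root of F. CPM are TMM-scaled within a species; length-corrected CPM are scaled over all 18 libraries to the geometric mean length of the 3 models. The fits were tested on simulated data. Alternatives were RLE scaling, library totals, DESeq2 1.42.0, no filter, no offset, first-pass matches alone, a replicate block and each library left out.

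The 9 genes and the marker lists were chosen with earlier results of these data known. All 9 are named; of each list PMP22, the highest genes by mean CPM and genes called against the list's median were named, with the 10 genes of highest likeness. NKX6-2, HAPLN2, AQP4, ASPA, CSPG4, EGR2 and NGFR fall outside this rule and were chosen after their values were seen, as was the comparison of PRX with MAG. Some genes that the rule names are not reported here.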

Additional observations from a re-analysis of the deposited data

Results flagged for a closer look

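For CLDN11 the difference between brain and muscle differed between the species by the F test of the interaction (edgeR adjusted p = 0.0112). The log2 difference was 5.39 ± 0.29 (SE) in cattle, 4.43 ± 0.82 in sheep and 8.04 ± 0.53 in goat, and in each species the lowest brain library lay above the highest muscle library. Over 25 alternatives its adjusted p ran from 0.000421 to 0.0337.

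For MOG the same test gave an edgeR adjusted p of 0.0212. The log2 difference was 2.13 ± 0.28 in cattle, 2.98 ± 0.32 in sheep and 4.25 ± 0.48 in goat. Over 26 alternatives its adjusted p ran from 0.00372 to 0.0577, and 21 of them kept it below 0.05. The cattle MOG model shares 51.3% of its exonic bases with ZFP57. ZFP57 was read at 1217, 856 and 1001 counts in cattle brain and at 274, 337 and 444 in cattle muscle. The part of this overlap in the difference was not tested.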

How the results depend on the processing

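Within species, 9 genes were called higher in brain in every fit but DESeq2 in goat, with 8, where MOBP had no adjusted p. Over 2065 pairs of a gene and an alternative, 1980 kept direction and side of the threshold or were uncalled in both, 54 lost the call, 30 gained it and 1 reversed: MAL, cattle minus goat in muscle, at 0.12 without the length offset. No cause of these changes was tested.

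With first-pass matches alone 3 of the 9 genes could be fitted; 3 were then called over the species, 1 in the interaction, 2 for brain cattle against goat, 0 for brain sheep against goat, 1 for muscle cattle against goat and 0 for muscle sheep against goat. Without the length offset 0 were called for brain cattle against sheep and 0 in each of the 3 muscle comparisons. Without sheep brain C and goat brain A together 5 were called for brain cattle against sheep. In each of the 4 comparisons without the offset that called 0 by edgeR, 1 gene had an unadjusted p below 0.05; for first-pass matches it was 0 for brain and 1 for muscle. DESeq2 with the offset called 2, 3, 4 and 4 for brain cattle against sheep and for muscle cattle against sheep, cattle against goat and sheep against goat, and 3 for brain sheep against goat.

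Leaving out 1 library at a time gave 1 to 3 calls in the interaction (MOG lost without cattle brain B, goat brain A, cattle muscle C or goat muscle B, MBP gained without goat brain B), 2 to 4 for brain cattle against sheep (4 without sheep C), 5 to 8 for brain cattle against goat (5 without goat A, 6 without cattle C), 2 to 4 for brain sheep against goat (2 without sheep C or goat A, 4 without goat B or C), 2 to 3 for muscle cattle against sheep, 1 to 4 for muscle cattle against goat (1 without cattle muscle A, goat muscle B or goat muscle C) and 1 to 4 for muscle sheep against goat (4 without goat brain A, 1 without goat muscle C).

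Whether the letters pair brain with muscle libraries was not settled. The correlation of their deviations over the 9 same-letter pairs ran from -0.23 (goat B) to 0.19 (goat A). Different-letter pairs ran as widely, from -0.222 (goat brain A, muscle C) to 0.243 (goat brain B, muscle C). In sheep the same-letter values were 0.0422 to 0.0471, and the different-letter values were below 0, from -9.87e-06 to -0.0437. With the replicate block 1 gene was called in the interaction in place of 2, and MOG was lost.

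Goat A over goat B and C, as log2 of myelin to neuron levels, was 1.81 by medians and 2.40 as a sum without MBP. For sheep C over sheep A and B these values were -0.10 and -0.21. By medians against all matched genes in place of the neuron genes, the values were 1.29 for goat A and -1.001 for sheep C. By Spearman's rho 2 of the 10 most alike genes were shared.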
